A study of Mus musculus and Homo sapiens with 8 samples.

Results

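The brush border peptidases examined here are 9 genes, Anpep, Enpep, Xpnpep2, Dpp4, Ace, Naaladl1, Mme, Mep1a and Mep1b, chosen by name. The choice was made with earlier results of these data known. All 9 were among the 13359 distinct genes of the deposited expression table, and all 9 passed the filter on low values. RNA-seq had been carried out on small intestinal crypts of untreated 2-month-old C57BL/6 mice. One group had the genotype APCmin+, a truncating mutation of the Wnt pathway regulator Apc that leads to intestinal adenomas, and the other had APCmin+; Zmynd8IEC-/-, in which the chromatin reader gene Zmynd8 is labelled as deleted in the intestinal epithelium. Both groups therefore carried the Apc Min mutation, and neither was wild type. Each group had 2 libraries, and each library pooled RNA of 3 mice; the sources used here do not name the Cre line behind the deletion. The labels do not say whether pools of a group differed in litter or day, so a p-value here measures pool-to-pool spread only, which may be partly technical.

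The libraries held between 43457250 and 47500045 reads on the listed genes. Zmynd8 RNA stood at 6.94 and 4.73 FPKM (reads per length of gene and per total of the library) in the Apc Min libraries and at 7.30 and 7.65 FPKM in the knockout-labelled libraries. The targeted gene was thus not lower at the gene level, so the directions given here depend on the labels alone. Every log2 fold change is taken from log2(FPKM + 1), knockout-labelled minus Apc Min. The labels give no sex, and transcripts linked to it differed between the pools. Xist, the RNA of the inactive X chromosome in females, was at 22.6 and 0.0183 FPKM in Apc Min replicates 1 and 2 and at 24.3 and 25.2 FPKM in the knockout-labelled libraries. The Y-linked Eif2s3y was at 4.84 and 14.4 FPKM, and at 6.95 and 2.11 FPKM, in the same order. The part of sex in the results was not tested.

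The brush border is the carpet of microvilli on the luminal face of the enterocyte. Its membrane holds ectopeptidases, which cut the oligopeptides left by pancreatic proteases into amino acids and short peptides that the carriers of the same membrane take up. The enzymes differ in the end of the peptide they attack and in the residue they prefer, and several also inactivate peptide hormones. Their RNA is a feature of differentiated enterocytes on the villus more than of crypt base cells, and some have a gradient along the length of the small intestine. The labelled material was crypts, yet enterocyte RNA was abundant in every library: Vil1, the gene of the microvillus bundling protein villin, was at 834 and 1092 FPKM in Apc Min and at 1239 and 1277 FPKM in the knockout-labelled libraries. In such bulk samples, fewer cells of a type and less RNA per cell cannot be told apart.

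Promoter sequences are shown for the members with the largest positive differences between the groups, Mme and Ace, and for Enpep, with the smallest difference. RefSeq gives 3 start sites for Mme and 2 for Ace, and the one nearest to the gene's start in the deposited table was taken. Shown are the 250 bases before it (build GRCm38.p6), 5′ to 3′ on the strand of the gene: chr3:63294961-63295210 for Mme on the plus strand, chr11:105967698-105967947 for Ace on the plus strand and chr3:129332750-129332999 for Enpep on the minus strand. Capitals mark matches to 4 of the short motifs searched on both strands, namely the HNF4 core AAAGTCC, the CDX motif TTTATG, the GATA motif AGATAA and the TATA box TATAAA; matches of different motifs did not overlap in these windows.
Mme: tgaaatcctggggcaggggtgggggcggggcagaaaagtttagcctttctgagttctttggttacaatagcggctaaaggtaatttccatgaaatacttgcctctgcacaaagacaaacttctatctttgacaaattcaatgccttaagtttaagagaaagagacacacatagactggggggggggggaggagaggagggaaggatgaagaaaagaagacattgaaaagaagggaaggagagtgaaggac
Ace: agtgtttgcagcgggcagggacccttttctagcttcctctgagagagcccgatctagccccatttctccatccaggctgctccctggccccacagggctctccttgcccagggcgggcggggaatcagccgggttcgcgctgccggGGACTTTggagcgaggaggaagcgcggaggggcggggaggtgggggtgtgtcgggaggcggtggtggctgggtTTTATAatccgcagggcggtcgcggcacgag
Enpep: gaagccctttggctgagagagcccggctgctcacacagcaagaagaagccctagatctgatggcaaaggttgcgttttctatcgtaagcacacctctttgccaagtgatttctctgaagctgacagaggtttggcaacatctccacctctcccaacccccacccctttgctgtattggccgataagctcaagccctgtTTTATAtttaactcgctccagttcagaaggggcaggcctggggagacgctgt
In Ace the HNF4 core lies at positions -104 to -98 and the TATA box at -31 to -26, both on the opposite strand to the gene. Enpep has a TATA box match on the opposite strand at -52 to -47 and another across the start site, and the 3 windows of Mme and the other window of Ace hold none of the 4. RefSeq promoters were found for 7 of the 9 members, with 10 windows of 300 bases in all, which include 50 bases past the start. The HNF4 core was in 1 of the 10, where 4.21% of 32851 windows of the same length hold it, and the TATA box in windows of Ace, Dpp4 and Enpep (3 of 10, against 13.6%). The GATA motif was in 1 window, that of Dpp4 (11.2% of all), and the CDX motif in 1, that of Mep1a (11.9%). These matches describe the letters in the windows and were not tied to the expression values. Mep1b and Naaladl1 are named only.

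Mme rose in the knockout-labelled libraries, and it was the only member that passed the test across all genes. Anpep, Xpnpep2, Dpp4 and Ace had higher values in both of those libraries than in either Apc Min library, Mep1a and Mep1b had lower ones, and Enpep and Naaladl1 overlapped. The limma test called 1 of 9 members higher and 0 lower at an adjusted p under 0.05, where 0.726% of the 12948 genes tested were called (0.595% higher and 0.131% lower). At an unadjusted p under 0.05, 3 members were higher (Mme, Dpp4 and Ace) and 0 lower, where 7.49% of all genes were higher and 19.1% lower. The groups did not overlap for 7 of 9 members, where 63.4% of all genes tested did not; this held for 5 members in the higher and 2 in the lower direction, against 14.9% and 48.5% of all genes. The members' median log2 fold change was 0.20, beside -0.15 for all genes tested. With voom, a limma fit that weights recovered reads, 1 member was again called higher and 0 lower.

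**Figure D1:**
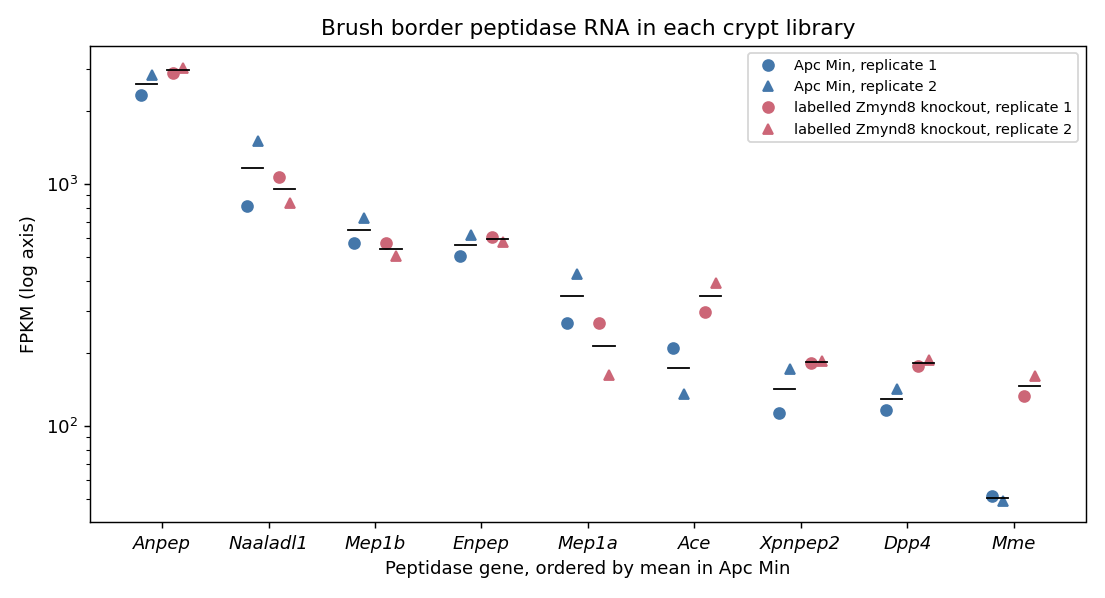
FPKM of the 9 peptidase genes on a log axis, 1 point per library (circles replicate 1, triangles replicate 2; blue Apc Min, red labelled Zmynd8 knockout) with a line at each group's mean. Mme lies near 50 FPKM in both Apc Min libraries and above 130 FPKM in both knockout-labelled libraries, while the Naaladl1 groups overlap.

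Anpep encodes aminopeptidase N (CD13), the main neutral aminopeptidase of the microvillus membrane (protein coding, chromosome 7, 79821803 to 79848189, minus strand). It was at 2347 and 2826 FPKM in Apc Min replicates 1 and 2 and at 2896 and 3037 FPKM in the knockout-labelled libraries. Both of the latter were above both controls, though the upper control lay close to them. The group means were 2587 ± 338 and 2967 ± 99.7 FPKM (SD, n = 2 each). Limma put the log2 fold change at 0.20, with a 95% interval from -0.20 to 0.61 (SE 0.16, adjusted p = 0.435). Anpep held the first place among the members in all 4 libraries and ranked 12 among all listed genes by mean level. A gene model still to be experimentally verified lies inside it on the same strand, with 973 to 1880 reads per library against 396388 to 550397 for Anpep.

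Enpep encodes glutamyl aminopeptidase (aminopeptidase A), which removes acidic residues and also cuts angiotensin II (chromosome 3, 129269177 to 129332749, minus strand). Its levels were 504 and 618 FPKM in Apc Min and 608 and 578 FPKM in the knockout-labelled libraries, so both of the latter fell between the controls. A log2 fold change of 0.09 resulted, with a 95% interval of -0.30 to 0.47 (SE 0.15, limma adjusted p = 0.723). Without Apc Min replicate 1 it was -0.06.

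Xpnpep2 encodes the membrane-bound aminopeptidase P, which releases a first residue followed by proline (chromosome X, 48106913 to 48136982, plus strand). The knockout-labelled libraries were close together at 183 and 186 FPKM, above Apc Min at 114 and 172 FPKM. Apc Min replicate 1 was the low library. By limma the difference was 0.39 on the log2 scale, with a 95% interval of -0.17 to 0.95 (SE 0.22, adjusted p = 0.297). Without Apc Min replicate 2, the library with Xist near 0, it was 0.69 (adjusted p = 0.0461 by limma), a fit in which the single Apc Min library left is assumed to vary like the other group.

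Dpp4 encodes dipeptidyl peptidase 4 (CD26), a serine peptidase that removes dipeptides ending in proline or alanine and inactivates the incretin hormones (chromosome 2, 62330073 to 62412318, minus strand). It was at 116 and 143 FPKM in Apc Min and at 178 and 187 FPKM in the knockout-labelled libraries, which did not overlap. The means were 130 ± 18.7 and 182 ± 6.65 FPKM (SD, n = 2 each). Its difference of 0.50 on the log2 scale had a 95% interval of 0.14 to 0.85 (SE 0.14) and did not pass over all genes (limma adjusted p = 0.125). T cells also carry Dpp4. The 7 T cell markers summed to 131 and 211 FPKM in Apc Min and to 159 and 137 FPKM in the knockout-labelled libraries, so their groups overlapped, and none was called. Most of each sum was Gzma, at 100 and 175 FPKM in Apc Min and at 125 and 110 FPKM in the knockout-labelled libraries. The part of T cells in the Dpp4 values was not tested.

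Ace encodes angiotensin-converting enzyme, a dipeptidyl carboxypeptidase that takes dipeptides from the end opposite to that of Dpp4 (chromosome 11, 105967945 to 105989964, plus strand). Its RNA was at 211 and 136 FPKM in Apc Min and at 297 and 392 FPKM in the knockout-labelled libraries. All 4 libraries were apart from one another, with Apc Min replicate 2 the lowest. The means were 173 ± 53.3 and 345 ± 67.1 FPKM (SD, n = 2 each), a ratio of 1.99. Limma put the log2 fold change at 1.01, with a 95% interval from 0.29 to 1.72 (SE 0.27, adjusted p = 0.128). Endothelial cells are another source of Ace RNA. The 7 endothelial markers summed to 33.5 and 25.1 FPKM in Apc Min and to 26.3 and 33.0 FPKM in the knockout-labelled libraries, which overlapped; none was at 0 and none was called, with Pecam1 at 7.08, 5.35, 6.40 and 6.87 FPKM. These gene-level values do not separate the somatic form of Ace from the shorter germ cell form.

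Naaladl1 encodes a zinc peptidase of the ileal brush border related to glutamate carboxypeptidase II (chromosome 19, 6105798 to 6115555, plus strand). It was the second most abundant member in every library. Its levels were 817 and 1515 FPKM in Apc Min and 1073 and 833 FPKM in the knockout-labelled libraries. The knockout-labelled libraries lay within the range of the controls, whose 2 pools had the widest relative spread of any member (coefficient of variation 42.4%). A log2 fold change of -0.23 resulted, with a 95% interval of -1.17 to 0.70 (SE 0.35, limma adjusted p = 0.684). It changed sign without Apc Min replicate 2, to 0.21.

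Mme encodes neprilysin (CD10), an endopeptidase that cuts peptides before hydrophobic residues (chromosome 3, 63295224 to 63383713, plus strand). It was at 51.2 and 49.2 FPKM in Apc Min and at 133 and 161 FPKM in the knockout-labelled libraries. The controls nearly coincided, and the nearest library of the other group was far above them, with a ratio of 2.93 between the means. By limma the difference was 1.52 on the log2 scale, with a 95% interval of 1.19 to 1.86 (SE 0.13, adjusted p = 0.0417). It lay at the 99.3 percentile of all log2 fold changes. The call was close to the threshold: adjusted p was 0.0528 without a filter on low values, 0.0539 with a stricter one (a mean of 5 FPKM), 0.152 with a replicate block, 0.0508 without Apc Min replicate 1, and 0.139 and 0.256 without replicate 1 and replicate 2 of the knockout-labelled libraries. Across all alternatives the log2 fold change stayed between 1.13 and 1.70. The 1.13 came with libraries scaled to Vil1, a setting chosen after the data were seen. Its limma adjusted p of 0.0017 is too small, since every gene then shares the error of Vil1. With all libraries kept and no scaling to Vil1, limma adjusted p ran from 0.0269 (voom) to 0.152 (replicate block). Early B cells and stromal cells also carry Mme. Of the markers in the table, 0 of 6 for B and plasma cells and 0 of 7 for stromal and muscle cells were called. The B and plasma cell sums ran from 404 to 424 FPKM in Apc Min and from 321 to 474 FPKM in the knockout-labelled libraries, and Jchain was most of each. The stromal and muscle sums ran from 271 to 331 FPKM in Apc Min and from 235 to 265 FPKM in the knockout-labelled libraries. The part of these cells in the Mme values was not tested.

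Mep1a and Mep1b encode the alpha and beta subunits of meprin, an astacin-type endopeptidase in which the beta subunit anchors the alpha subunit to the membrane. Mep1a (chromosome 17, 43474324 to 43504141, minus strand) was at 267 and 426 FPKM in Apc Min and at 266 and 163 FPKM in the knockout-labelled libraries. The lower Apc Min library (267 FPKM) and the upper knockout-labelled library (266 FPKM) nearly coincided, so the groups were only narrowly apart. Limma put the log2 fold change at -0.70, with a 95% interval from -1.67 to 0.28 (SE 0.35, adjusted p = 0.283). Mep1b (chromosome 18, 21072344 to 21100199, plus strand) was at 574 and 722 FPKM in Apc Min and at 571 and 506 FPKM in the knockout-labelled libraries. Here too the lower Apc Min library and the upper knockout-labelled library nearly coincided. A log2 fold change of -0.26 resulted, with a 95% interval of -0.68 to 0.16 (SE 0.16, limma adjusted p = 0.351). The ratio of Mep1a to Mep1b FPKM was 0.466 and 0.590 in Apc Min and 0.465 and 0.321 in the knockout-labelled libraries, so the alpha subunit varied more than the beta subunit.

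**Figure D2:**
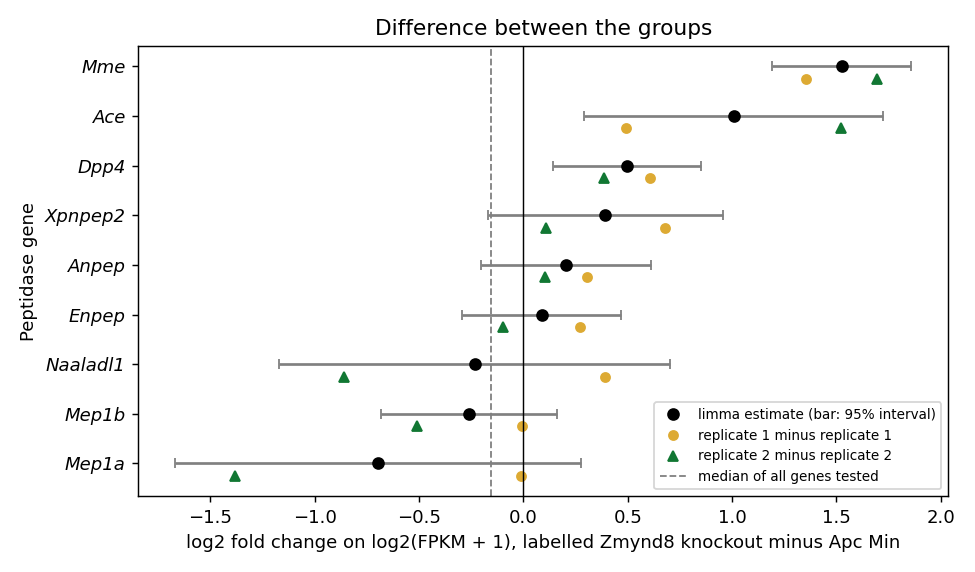
Log2 fold change of each peptidase gene, labelled Zmynd8 knockout minus Apc Min on log2(FPKM + 1); black points are limma estimates with 95% intervals, circles and triangles are the differences between same-numbered replicates, and the dashed line is the median of all genes tested (-0.15). The interval of Mme (1.19 to 1.86) lies farthest from 0, and the same-numbered differences of Mep1a and Naaladl1 lie far apart. Same-numbered replicates share only a number.

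The order of levels per kilobase was stable at the top and changed lower down. Anpep came first and Naaladl1 second in all 4 libraries, and Mme came last in all 4. Behind Naaladl1 came Mep1b and then Enpep in both Apc Min libraries, and these changed places in both knockout-labelled libraries. Ace ranked 6 and 8 in Apc Min and 5 in both knockout-labelled libraries, while Mep1a ranked 5 in both Apc Min libraries and 6 and 8 in the others. Xpnpep2 and Dpp4 did not differ from each other beyond their spread in either group, with means of 143 ± 41.4 and 130 ± 18.7 FPKM in Apc Min and 184 ± 2.17 and 182 ± 6.65 FPKM in the knockout-labelled libraries (SD, n = 2 each). Mep1b and Enpep overlapped in Apc Min but not in the knockout-labelled libraries, where Enpep was above Mep1b. Summed over the 9 genes, FPKM was 5002 and 6606 in Apc Min and 6204 and 6044 in the knockout-labelled libraries, and these groups overlapped. Anpep made up 42.8% to 50.3% of that sum in the 4 libraries, and Mme 1.02% and 0.745% in Apc Min and 2.14% and 2.67% in the knockout-labelled libraries. All members were abundant, the lowest (Mme) at the 95.2 percentile of mean level among listed genes. Between 15362 and 550397 reads lay behind each value, so counting error was at most 0.807%, while the coefficient of variation between the 2 pools of a group ran from 1.18% to 42.4%.

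The authors' deposited table gave 5 of the 9 members a q-value under 0.05, where 2.13% of all listed genes had one. In the authors' deposited table these were Ace (q = 2.08e-12), Mme (2.22e-10), Anpep (1.07e-06), Mep1a (1.44e-05) and Naaladl1 (0.0037). For Naaladl1 the library values overlapped, and 4 of the 5 did not pass limma, which sets the difference against the spread between pools. In the same deposited table Dpp4 had q = 0.120, and Mep1b, Xpnpep2 and Enpep had 0.300, 0.735 and 1. The sources used here do not name the test behind those values.

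The members split by the direction in which the pools of a group differed, whatever the size of the difference. Enpep, Naaladl1, Mep1a and Mep1b were higher in replicate 2 than in replicate 1 of Apc Min and lower in replicate 2 than in replicate 1 of the knockout-labelled libraries. All 7 ileal marker genes did the same, as did 5 of 7 goblet cell markers, 5 of 7 T cell markers and 20.7% of all genes tested. The ileal bile acid binding protein gene Fabp6 was at 1459 and 7606 FPKM in Apc Min and at 2250 and 134 FPKM in the knockout-labelled libraries, and Slc10a2, the ileal bile acid transporter gene, at 77.4, 180, 104 and 23.4 FPKM in that order. Ace and Mme went the opposite way in both groups, as did 7 of 9 proximal marker genes, 7 of 7 endothelial genes and 26.2% of all genes tested. Among the proximal genes Fabp1 was at 128 and 59.8 FPKM in Apc Min and at 609 and 1107 FPKM in the knockout-labelled libraries, and Gata4, a transcription factor gene of the proximal intestine, at 10.6, 5.86, 16.5 and 26.0 FPKM. Anpep, Dpp4 and Xpnpep2 were higher in replicate 2 of both groups, as were 13 of 20 enterocyte markers and 14.8% of all genes tested. Some of these directions rest on small differences. On log2(FPKM + 1), replicate 2 minus replicate 1 was -0.057 for Mme in Apc Min. In the knockout-labelled libraries it was -0.072 for Enpep, 0.069 for Anpep, 0.074 for Dpp4 and 0.024 for Xpnpep2. The ileal list summed to 2197 and 8954 FPKM in Apc Min and to 3126 and 610 FPKM in the knockout-labelled libraries, and none of its 7 genes was at 0. The proximal list, which shares Fabp1 and Lct with the enterocyte markers, summed to 347 and 196 FPKM, and to 1140 and 1914 FPKM, of which Fabp1 was the largest part in the knockout-labelled libraries. Between the groups, 5 of its 8 tested genes were higher without overlap, 1 was lower and 2 overlapped. Of all genes tested, 14.9% were higher and 48.5% lower without overlap. The lower gene was Slc40a1, an iron exporter gene, at 31.8 and 17.6 FPKM, then 10.8 and 4.31 FPKM. Limma called Cyp3a11 higher (1 gene, with 2 by voom and 0 with a replicate block). Whether intestinal region has a part in these differences was not tested.

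**Figure D3:**
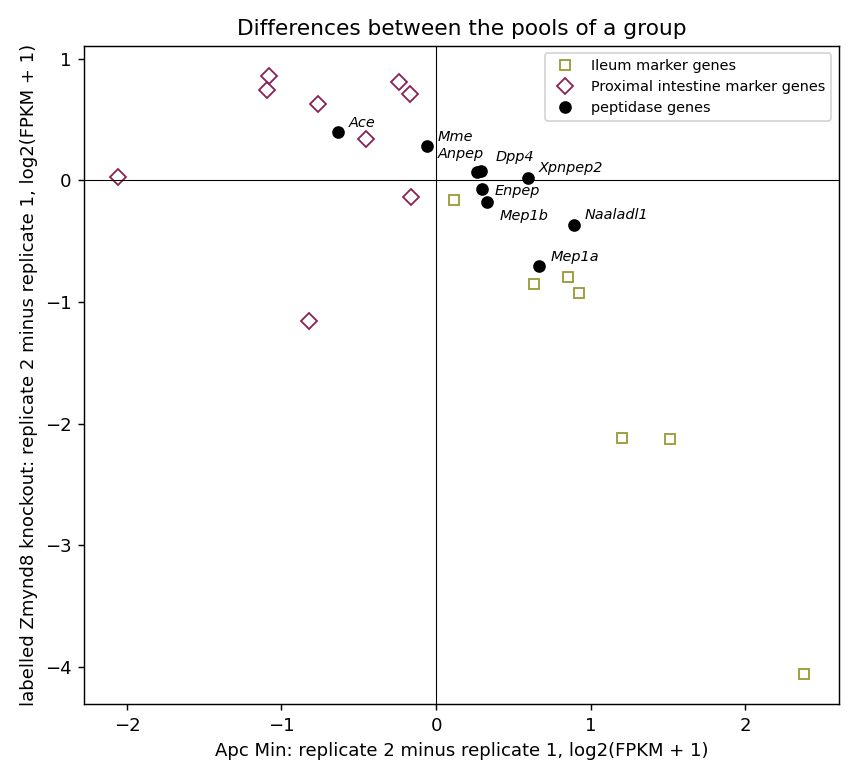
Difference between replicate 2 and replicate 1 on log2(FPKM + 1), in Apc Min (horizontal) and in the knockout-labelled libraries (vertical), for the 9 peptidase genes, the 7 ileal and the 9 proximal marker genes. Mep1a, Naaladl1, Mep1b and Enpep lie at the lower right with all ileal genes, and Ace and Mme at the upper left with 7 proximal genes. Mme and Enpep lie close to an axis.

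The members were next set against villin. Vil1 itself had a log2 fold change of 0.40 (limma adjusted p = 0.215), with both knockout-labelled libraries above both controls. As a percentage of Vil1 FPKM in the same library, Mme was 6.14 and 4.51 in Apc Min and 10.7 and 12.6 in the knockout-labelled libraries, and Dpp4 13.95 and 13.1, and 14.3 and 14.7. These 2 members did not overlap and were higher, where 4.32% of all genes tested were. The ratio between the means was 2.19 for Mme but only 1.07 for Dpp4. With libraries scaled to Vil1, Dpp4 had a log2 fold change of 0.10 (limma adjusted p = 0.758). Anpep, Enpep, Naaladl1, Mep1a and Mep1b were lower without overlap, where 74.4% of all genes tested were. Mep1b, for one, was 68.8 and 66.1 percent of Vil1 in Apc Min and 46.1 and 39.6 percent in the knockout-labelled libraries. Ace (25.3 and 12.4, then 24.0 and 30.7 percent) and Xpnpep2 (13.6 and 15.8, then 14.7 and 14.5 percent) overlapped. The signs of Anpep, Enpep and Xpnpep2 thus depended on the scaling: they were positive as deposited and after median-ratio scaling and quantile normalization, and negative when each library was scaled to Vil1, a setting chosen after the data were seen.

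**Figure D4:**
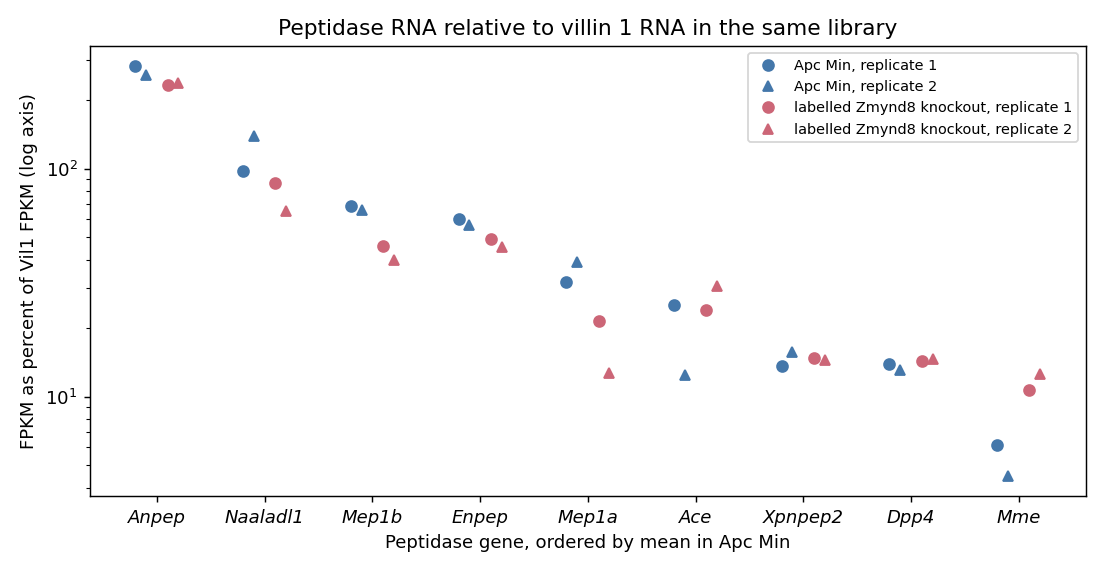
FPKM of each peptidase gene as a percentage of Vil1 FPKM in the same library, on a log axis (circles replicate 1, triangles replicate 2; blue Apc Min, red labelled Zmynd8 knockout). Mme is higher in both knockout-labelled libraries (10.7 and 12.6 percent) than in Apc Min (6.14 and 4.51 percent), and both meprin genes are lower.

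Enterocyte markers outside the peptidases had a higher median. Of 20 genes, 20 had positive log2 fold changes around a median of 0.997, 2 were called higher (Slc2a2 and Treh; 6 with voom, 0 with a replicate block) and 0 lower, and 19 were higher without overlap (14.9% of all genes tested were). The difference between these markers and the peptidases was not tested. The gene lists, too, were chosen with earlier results of these data known, so their counts beside the shares of all genes are descriptive. Of all 12948 genes tested, 3669 had positive and 9279 negative log2 fold changes. Markers of Paneth, goblet, cycling and stem cells had negative medians, and those of enteroendocrine cells a positive one (0.21, 0 of 6 called). Of 7 Paneth cell genes, 7 were negative (median -1.17), 6 were lower without overlap, where 48.5% of all genes tested were, and 2 were called lower by limma (4 with voom, 0 with a replicate block). The 2 called were Mmp7, a matrix metalloproteinase gene (189.8 and 142.6 FPKM in Apc Min, 45.6 and 47.4 FPKM in the knockout-labelled libraries), and the lectin gene Itln1 (699.9 and 888.9 FPKM, then 269.9 and 298.5 FPKM). Of 7 goblet cell genes, 5 were lower without overlap, around a median of -0.50, with 0 called by limma or voom (3 lower at an unadjusted p under 0.05). All 12 cycling cell genes were lower without overlap (median -0.54), with 0 called by limma or voom and 11 lower at an unadjusted p under 0.05, where 19.1% of all genes tested were. Among the 8 stem cell genes, 7 were lower without overlap (median -0.60), with 0 called by limma or voom and 4 lower at an unadjusted p under 0.05.

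Among other membrane peptidases and proteases of the enterocyte, 0 of 6 tested were called (0 with voom), around a median of -0.07. At an unadjusted p under 0.05, 2 were higher and 1 lower, where 7.49% and 19.1% of all genes tested were. Ggt1, the gene of gamma-glutamyltransferase, which cuts glutathione, was at 166 and 210 FPKM in Apc Min and at 258 and 280 FPKM in the knockout-labelled libraries (log2 fold change 0.52, limma adjusted p = 0.133). Dpep1, a dipeptidase gene, overlapped between the groups at 163 and 249 FPKM and at 190 and 150 FPKM. Its pools differed in the same directions as those of Mep1a. Tmprss15, the gene of the trypsinogen activator enteropeptidase, and Folh1 were not among the listed genes and could not be analysed.

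Of the 26 structural relatives of the members, 15 were in the table and 0 were called (3 higher and 3 lower at an unadjusted p under 0.05), with a median of -0.12. Of 12 intracellular peptidases of peptide breakdown, 0 were called (3 higher and 4 lower at an unadjusted p under 0.05), also around -0.12. At that unadjusted p, 7.49% of all genes tested were higher and 19.1% lower. Pepd, the prolidase gene, was at 191 and 226 FPKM in Apc Min and at 286 and 334 FPKM in the knockout-labelled libraries (log2 fold change 0.57, limma adjusted p = 0.120). The leucine aminopeptidase gene Lap3 was at 274 and 267 FPKM and at 345 and 397 FPKM (0.45, limma adjusted p = 0.126). In the same list of 12, Thop1, Blmh and Prep had negative values of -0.70, -0.59 and -0.52. None of them passed. With voom, too, 0 genes were called in these lists of relatives and intracellular peptidases, among the carriers and among the transcription factors described next.

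Carriers of peptides and amino acids and their partners, a list not limited to uptake at the brush border, had mostly positive values. Of 12 genes tested, 10 had positive and 2 had negative values (median 0.53), with 0 called. Among all 12948 genes tested, 3669 had positive and 9279 negative values. At an unadjusted p under 0.05, 7 carriers were higher and 1 lower, where 7.49% and 19.1% of all genes tested were. Slc15a1, the gene of the peptide carrier PEPT1, was at 243 and 199 FPKM in Apc Min and at 354 and 383 FPKM in the knockout-labelled libraries (log2 fold change 0.74, limma adjusted p = 0.0902). Slc43a2 gave 0.70 (limma adjusted p = 0.0767) and Slc3a2, the heavy chain of the basolateral exchangers, 0.67 (limma adjusted p = 0.0935). Slc36a1, a proton-coupled amino acid carrier gene, was at 20.97 and 16.0 FPKM and at 38.9 and 61.4 FPKM (1.37, limma adjusted p = 0.0991). Slc6a19, the neutral amino acid carrier gene, was at 199 and 282 FPKM and at 299 and 322 FPKM (0.39, limma adjusted p = 0.261). On the negative side, Slc1a1, the glutamate carrier gene, was at 32.7 and 49.9 FPKM and at 24.98 and 13.2 FPKM (-1.11, limma adjusted p = 0.193), with pools that differed in the directions of the ileal genes.

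**Figure D5:**
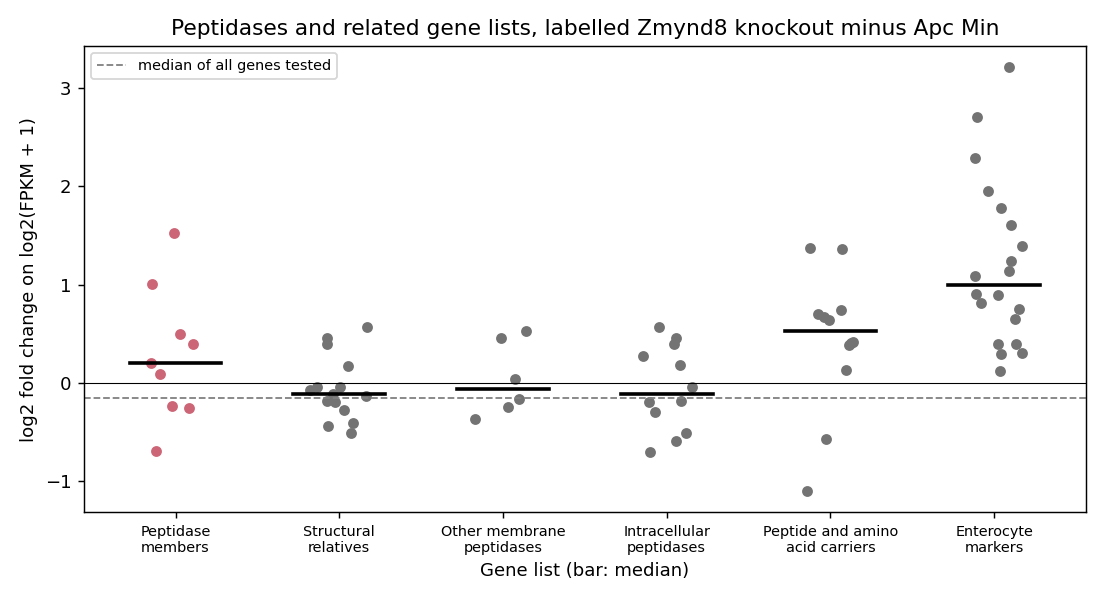
Log2 fold change on log2(FPKM + 1), labelled Zmynd8 knockout minus Apc Min, of each tested gene in the peptidase list (red) and 5 related lists (grey), with a bar at each list's median and a dashed line at the median of all genes tested. The peptidase genes spread from -0.70 to 1.52 around 0.20, carriers lie around 0.53 and enterocyte markers around 0.997.

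Transcription factor genes of the enterocyte were also examined, with 0 of 13 called and a median of -0.03. At an unadjusted p under 0.05, 4 were higher and 0 lower, where 7.49% and 19.1% of all genes tested were. Hnf4g, Gata6 and Creb3l3 were positive at 0.63, 0.57 and 1.17, with limma adjusted p of 0.0941, 0.0819 and 0.0737. Hnf4a, at 219 and 268 FPKM in Apc Min and at 199 and 176 FPKM in the knockout-labelled libraries, had a log2 fold change of -0.37 (limma adjusted p = 0.193). Cdx1 and Cdx2 gave -0.32 and -0.26.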

How the data were processed

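Small intestinal crypt RNA of 4 libraries was analysed, and 4 ChIP-seq libraries of HCT116 cells were not analysed here. Libraries were made with an NEBNext Ultra RNA kit and read in pairs on a HiSeq3000, per the labels' protocols; HISAT2 and build mm10 are named in the submitters' processing notes without roles. Counting software, annotation and strandedness remain not given in the sources used here. The deposited values carry no unit and were read as FPKM, since dividing out gene length and 1 total per library returned whole reads, within 0.002 reads, for 13359 of 13359 genes. The authors' deposited log2 fold change and the deposited p-values and q-values come from an unnamed test. The authors' deposited table had 13527 entries, of which 168 exact repeats were dropped. 

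The 12948 genes reaching 1 FPKM in 2 or more libraries entered a limma fit (version 3.58.1, R 4.3.3) of log2(FPKM + 1), a scale that understates changes of low genes, with trend and robust moderation, genotype as the only term and 2 residual degrees of freedom. P-values were adjusted over all genes tested (Benjamini-Hochberg, threshold 0.05), and intervals are at 95%. The members, lists and motifs were chosen with earlier results of these data known. The rule for names took all members, up to 4 genes per related list by smallest p (for marker lists by highest mean level) and the 8 genes nearest to the members' mean profile, predicted genes left out; Vil1, Xist, Eif2s3y, Lap3, Slc6a19, Slc1a1, Hnf4a, Cdx1, Cdx2, Mmp7, Slc40a1 and the genes nearest to single members were named after their values were seen. Some genes of the lists, and 1 motif searched, are not reported here. Alternatives covered scaling, pseudocount, filters, trend, voom, a replicate block and each library left out.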

Additional observations from a re-analysis of the deposited data

How the results depend on the processing

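Of 126 values of the members under alternatives, 113 kept their sign and their side of the threshold, 6 (all of Mme) lost the call, 2 (Xpnpep2 without Apc Min replicate 2, Mep1a scaled to Vil1) gained one and 5 changed sign. The count of members called higher was 0 without a filter on low values, under a stricter filter (mean of 5 FPKM) and with the replicate block, and 0 to 2 when 1 library was left out; the one called lower with libraries scaled to Vil1 was Mep1a (1 member). With 1 library left out, Enpep ran from -0.060 (without Apc Min replicate 1) to 0.23 and Naaladl1 from -0.68 to 0.21 (without Apc Min replicate 2). With libraries scaled to Vil1, Anpep was at -0.19, Enpep at -0.31, Xpnpep2 at -0.0025 and the members' median at -0.19; every gene then shares the error of Vil1, so these p-values are too small. That scaling moved the median of all genes by -0.33, median-ratio scaling by 0.15 and quantile normalization by 0.13.

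Over all genes, 77 were called higher and 17 lower. The counts were 1 and 0 without a filter, 2 and 0 under the stricter filter, 41 and 9 without the trend, 123 and 27 with voom, 0 and 0 with the replicate block, and 186 and 1125 scaled to Vil1. Median-ratio scaling gave 60 and 4, and quantile normalization 61 and 5. With 1 library left out they ran from 0 to 230 and from 0 to 386, the highest without Apc Min replicate 2; the lone library of a group is then assumed to vary like the other group. These fits and the block have fewer degrees of freedom, and the cause of the changes in count was not tested. Scaled to Vil1, 2 carriers were called higher and 2 lower, 3 intracellular peptidases and 1 structural relative lower, and 2 transcription factors higher and 1 lower; without Apc Min replicate 2, 2 intracellular peptidases, 1 structural relative, 2 cycling and 5 stem cell genes were called lower. Same-numbered libraries share only a number: across 12948 genes their deviations correlated at 0.045.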

Other observations

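The 8 named genes whose profile over the 4 libraries lay nearest to the mean profile of the peptidases, after centring log2(FPKM + 1) on each gene's mean, were Sdpr, Slc22a4, Ctso, Map2k3os, Chmp4c, Pacsin2, Dnm1 and Entpd5, at Euclidean distances from 0.02 to 0.04 log2 units. Pacsin2, which encodes a membrane-bending protein, was at 38.6 and 49.1 FPKM in Apc Min and at 55.3 and 52.5 FPKM in the knockout-labelled libraries. With 4 libraries many genes have any given profile, and the mean profile hides members that went in opposite directions.

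Nearest genes to single members were looked up after the values were seen. Dpp4 was nearest to Clrn3 and to Ggt1, itself a brush border enzyme gene, at a distance of 0.05 each. Xpnpep2 was nearest to the amino acid carrier gene Slc6a19 (0.09), and Ace to the fatty acid carrier and activating enzyme gene Slc27a2 (0.06). Around Mep1a lay C2, a complement gene (16.99 and 26.6 FPKM in Apc Min, 16.6 and 10.3 FPKM in the knockout-labelled libraries), Ciita, the regulator of MHC class II genes (7.22, 12.7, 6.95 and 4.02 FPKM), and the Y-linked Uty (1.80, 2.90, 1.46 and 0.570 FPKM). Mep1b was nearest to Tap1, a gene of antigen presentation, at 0.02 (43.3 and 55.9 FPKM in Apc Min, 43.3 and 38.3 FPKM in the knockout-labelled libraries).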
